A study of Mus musculus with 6 samples.

Results

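The members described here are 1056 variant alleles on mouse chromosome 3 between 35000000 and 37000000 (GRCm38), each listed at the same position with the same bases in both bone marrow and ear of at least 1 of 3 animals. They were chosen by position and by being listed in both tissues, from 77823 such alleles in the whole genome. An animal is said to carry an allele when it is listed in both of its tissues. Of the members, 973 (92.1%) were carried by 1 animal alone and 83 (7.86%) by more than 1, whereas over the whole genome 15.4% were carried by more than 1. Animal 54 carried 562 members, animal 108 carried 573, and animal 136 carried 5. The interval was picked because animals 54 and 108 differ there, so these counts describe it and are not a test.

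The study sequenced the exomes of 6 samples of genomic DNA, from whole bone marrow and matched ear of 3 mice (2 male, animals 54 and 108, and 1 female, animal 136), all labelled C57BL/6. All 3 mice had been given tamoxifen to switch on an Srsf2 P95H allele through a Cre recombinase, and the sample labels give each of them as R26CreERT2 Srsf2 P95H. The design text differs, naming R26-CreERT2 for 2 of the mice and hScl-CreERT with R26eYFP for 1, without saying which. R26-CreERT2 acts in all tissues that express the Rosa26 locus, the ear included, and the hScl driver in blood-forming cells. The labels give an age of 50 to 60 weeks, and the design text gives the same weeks as time after tamoxifen, when the animals were moribund. No animal without the Srsf2 allele is among the samples. Exons were captured with a 50 Mb kit, and the stated mean depth was 100 reads. Tissue identity cannot be checked from markers in genomic DNA.

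A haplotype is the run of alleles that lie together on one copy of a chromosome and are inherited together until recombination separates them. In an inbred strain both copies match the reference nearly everywhere, and a stretch in which one copy comes from another source shows as a dense run of heterozygous sites, each near an even split of reads. A germline allele is found in blood and skin alike. An allele acquired in blood-forming cells is expected mainly in marrow, with fewer or no reads in ear. The interval holds genes of lipid transport, mitochondrial enzymes, RNA decay, the cell cycle and cilia, and ends shortly before the genes of the cytokines interleukin 2 and interleukin 21.

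The stretches of sequence that carry member alleles and could be read from the reference tables or the deposited lists are shown first, because they show what differs between the animals. Of 24 RefSeq promoter windows in the interval (GRCm38.p6, 250 bases before to 50 after a gene's start), those of Zfp267 (called D3Ertd254e in the lists) and Qrfpr each held 1 single nucleotide member. Both alleles were carried by animal 54 alone. The 250 bases before the start follow, 5′ to 3′ along the gene, with the base that differs in capitals.
Zfp267 promoter, chr3:36150830-36151079, plus strand: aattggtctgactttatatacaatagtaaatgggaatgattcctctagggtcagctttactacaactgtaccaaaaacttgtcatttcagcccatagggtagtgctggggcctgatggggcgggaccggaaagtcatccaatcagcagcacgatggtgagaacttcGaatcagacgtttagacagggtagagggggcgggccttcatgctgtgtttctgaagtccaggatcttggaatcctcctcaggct
Qrfpr promoter, chr3:36222276-36222525, minus strand: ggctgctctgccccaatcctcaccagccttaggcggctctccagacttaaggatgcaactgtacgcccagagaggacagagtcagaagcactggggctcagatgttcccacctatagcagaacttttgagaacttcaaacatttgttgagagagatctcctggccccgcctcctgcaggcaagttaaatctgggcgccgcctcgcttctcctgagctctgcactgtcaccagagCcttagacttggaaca
Counted from 1 at the printed 5′ end, the Zfp267 allele is G167C, 84 bases before the start, and was read in 33 of 61 marrow reads and 73 of 135 ear reads of animal 54. The Qrfpr allele is C235A, 16 bases before the start, and was read in 20 of 43 marrow reads and 40 of 91 ear reads. Neither was listed in animals 108 and 136. Qrfpr encodes the receptor of the neuropeptide QRFP, and Zfp267 a zinc finger protein.

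Of the 92 insertions and deletions, 6 are shown, and each changes a coding sequence, lies near a splice site or is carried by animal 136. Not shown, though of these kinds, are the frameshift insertion of 1810062G17Rik, given below, and a second loss in an Atp11b intron. The latter, of 3 bases in a run of T near a splice site at 35837470, had 5 of 8 marrow and 6 of 16 ear reads of animal 54. Each line is the deposited longer allele, read 5′ to 3′ on the plus strand, and the capitals mark the bases that are lost or gained.
Atp11b intron, 9 bases lost, animal 54, chr3:35788410-35788420: tcCCAATTTCC
Exosc9 exon 12, 3 bases lost, animal 108, chr3:36565479-36565493: ggaagaagaagaAGA
4932438A13Rik exon 10, 3 bases lost, animal 108, chr3:36889919-36889924: agtCGT
Acad9 intron, 3 bases gained, animal 54, chr3:36076900-36076902: agtCGT
Dcun1d1 intron, 2 bases lost, animal 136, chr3:35897321-35897367: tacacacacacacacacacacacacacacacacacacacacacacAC
Qrfpr intron, 2 bases lost, animal 136, chr3:36221785-36221831: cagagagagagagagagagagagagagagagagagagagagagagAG
The Atp11b loss had 33 of 76 marrow reads and 58 of 112 ear reads of animal 54. In animal 108 the Exosc9 loss had 17 of 55 and 14 of 45 reads, and the 4932438A13Rik loss 24 of 53 and 19 of 40. The latter was noted as a coding loss only on a 29-exon transcript marked for nonsense-mediated decay, and it lay in an intron of both protein-coding transcripts of the gene (0 of 2 carried the coding change). Both losses of animal 136 lie in long repeats of 2 bases, a kind of sequence in which copy number is hard to read. They had 12 of 28 and 7 of 28 reads at Dcun1d1, and 6 of 13 and 3 of 11 reads at Qrfpr.

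The runs of carried sites in animals 54 and 108 did not start or end together. Animal 54's members ran from 35295355 to 36481849 and were followed by a gap of 467 kb, after which only 4 more sites of this animal, at 36949298 to 36975446, lay inside the interval. Animal 108's first member lay at 35777468 and its members went on to 36999984, with the next carried site just outside the interval at 37002519. Counting 500 kb stretches beyond the interval, animal 108 carried 265 sites from 37000000 to 37499999, where animal 54 carried 0. Further on, from 38500000 to 38999999, animal 54 carried 54 sites and animal 108 carried 102. From 39000000 to 39499999 they carried 61 and 7. Before the interval, the last carried site of animal 54 lay at 34678026 and that of animal 108 at 34650401. Between 34500000 and 34999999 animal 54 carried 13 sites and animal 108 carried 1, and between 34000000 and 34499999 they carried 24 and 1. When runs are cut at gaps over 400 kb, the interval holds the whole of the run of animal 54. By the same cut it holds only the first piece of a run of animal 108 that reached 39128882 and held 1046 sites. Whether the sites of animal 54 before the interval belong with its run was not tested, and depth at uncalled sites is unknown. Animal 136 had no run. Its 5 sites were scattered from 35829235 to 36975446, and it carried 1 site in the 1 Mb before the interval and 2 in the 1 Mb after it.

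**Figure D1:**
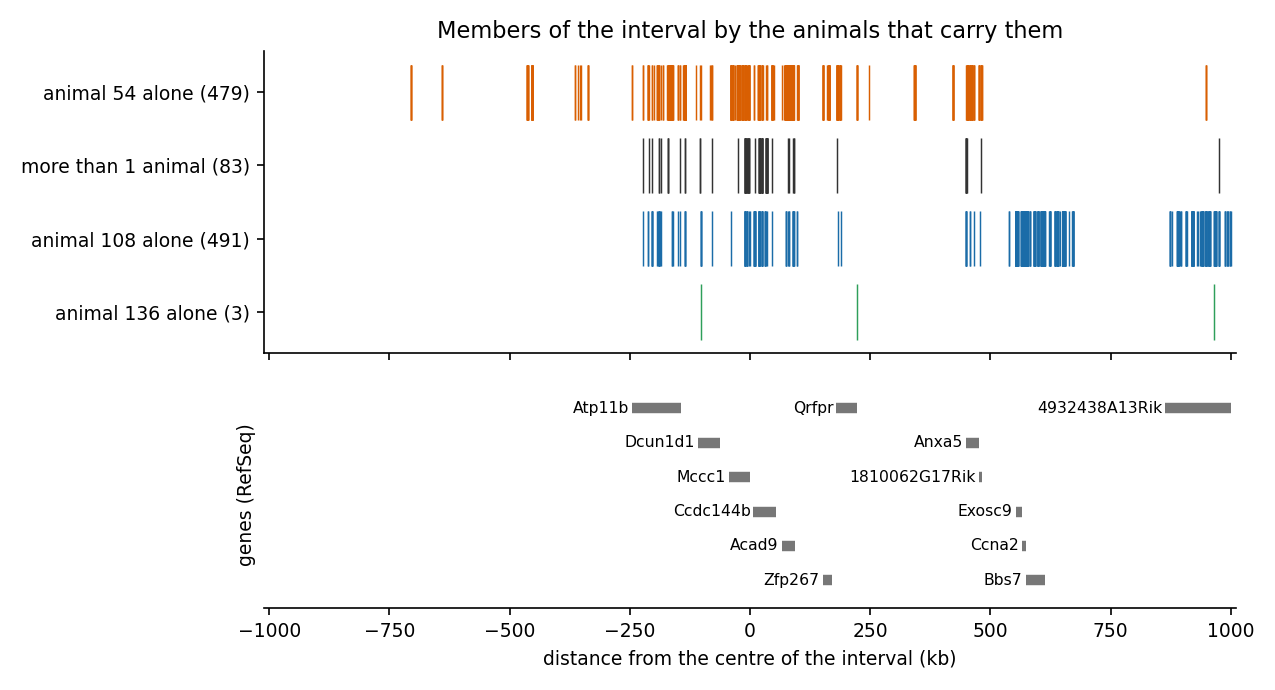
Each vertical line is 1 member allele, plotted by its distance in kb from the centre of the interval and placed in a row by the animals that carry it; grey bars below are RefSeq gene spans. The 479 alleles of animal 54 alone lie mainly left of 482 kb, and the 491 alleles of animal 108 alone begin at -223 kb and reach the right edge.

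These borders divide the interval into 3 stretches, set after the positions were seen. The left stretch, up to 35777467, held 43 members, all carried by animal 54 alone. It is poor in genes, and 11 of its members lay in the pseudogene Ube2l3-ps1, 9 in Gm6639 and 6 in Gm7733. The right stretch, from 36481850, held 386 members, of which 381 were carried by animal 108 alone. The middle stretch of 704 kb held 627 members, 433 of animal 54 alone, 110 of animal 108 alone, 2 of animal 136 alone and 82 carried by both animals 54 and 108.

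In the middle stretch animals 54 and 108 carried alleles in the same genes, but mostly different ones. The 82 alleles in common made up 15.9% of the 515 alleles of animal 54 there (95% Clopper-Pearson interval 12.9 to 19.4%) and 42.7% of the 192 alleles of animal 108 (35.6 to 50.0%). Insertions and deletions can be written in several ways, but with single nucleotide alleles alone the shares were similar, 80 of 473 (16.9%) and 80 of 179 (44.7%). No position carried different single nucleotide alleles in the 2 animals. Intervals here treat neighbouring sites as independent, which alleles of one haplotype are not.

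The alleles of the 2 animals were interleaved. The 572 single nucleotide alleles of the middle stretch fell into 183 blocks of neighbours of one kind: 73 blocks of animal 54 alone, 62 of animal 108 alone and 48 shared. The longest block of animal 54 alone held 35 alleles, from 36098358 to 36180078, a span that begins beyond Acad9, takes in all of Zfp267 and ends inside Qrfpr. The longest shared block held 8 alleles within Ccdc144b, from 36035129 to 36035226, and the longest block of animal 108 alone held 6.

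A site missing from a list can be a site with too few reads, since the lists give no depth where nothing was called. Of the 110 alleles of animal 108 alone in the middle stretch, 59 (53.6%) lay within 50 bases of a site carried by animal 54, where reads of animal 54 were at hand. Of the 433 alleles of animal 54 alone there, 58 (13.4%) lay within 50 bases of a site carried by animal 108. Over the whole interval, 10 of the 479 alleles of animal 54 alone were listed in 1 tissue of animal 108, and 14 of the 491 alleles of animal 108 alone in 1 tissue of animal 54. Leaving out all that were listed anywhere in another animal left 947 of the 973.

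**Figure D2:**
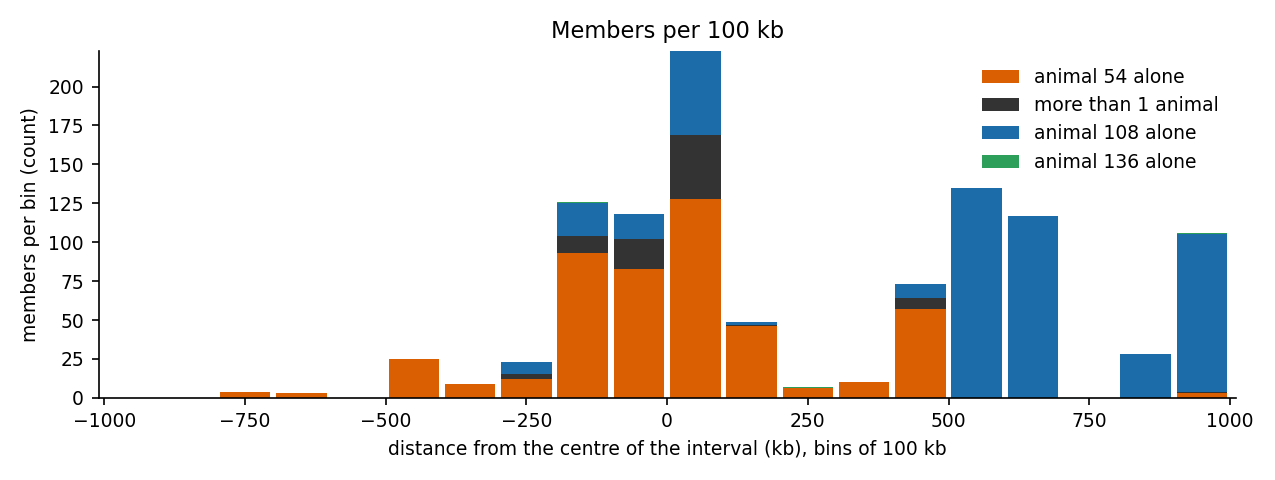
Stacked bars give the number of members in each 100 kb bin by distance in kb from the centre of the interval, coloured by the animals that carry them. The fullest bin, just right of the centre, held 223 members, and the bins from 500 to 700 kb held 135 and 117, all of animal 108 alone.

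For comparison, the genome was divided into 2 Mb windows on the same grid, and 17 windows had at least 100 alleles carried by each of animals 54 and 108. In the chromosome 3 interval 7.79% of the alleles of either animal were carried by both, the lowest of the 17 values. The median of the 17 windows was 75.5%, with quartiles of 46.0 and 79.2%, and the next lowest was 19.7% on chromosome 9. Windows of chromosome 6, the chromosome of the Rosa26 locus, lay between 105000000 and 122999999 and had 75.5 to 81.0%. They include the median window. Windows of one chromosome are not independent, so the median is not a general level of sharing for the genome. In the middle stretch alone the share was 13.1%. A window of the same chromosome, from 31000000 to 32999999, had 99 alleles in common of 123 and 121, or 68.3%. The interval was chosen for this difference, so its place at the bottom is a description.

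**Figure D3:**
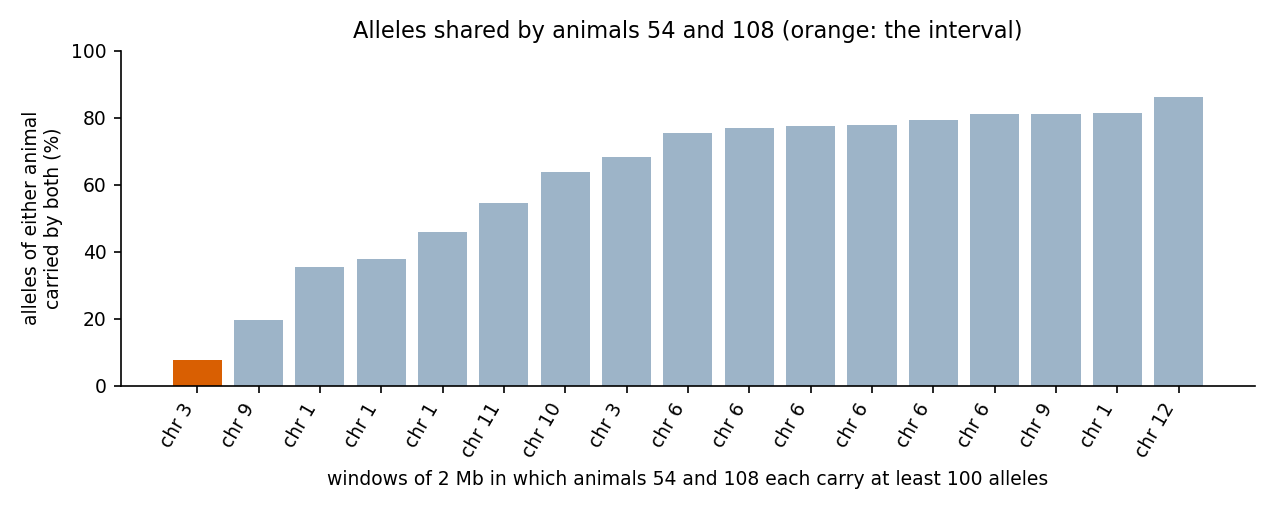
Bars give, for the 17 windows of 2 Mb in which animals 54 and 108 each carried at least 100 alleles, the percentage of alleles of either animal that both carried, in rising order and labelled by chromosome. The interval, in orange, has 7.79%, and 9 of the other windows lie above 75%.

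The members' read fractions were those of heterozygous sites in both tissues. In animal 54 the median variant fraction over its 562 members was 46.6% in marrow (quartiles 40.0 and 52.9%) and 47.5% in ear (41.9 and 53.0%). In animal 108 it was 47.4% in marrow (40.7 and 53.1%) and 47.1% in ear (40.0 and 54.5%) over 573 members. Between 20 and 80% lay 558 of 562 members in either tissue of animal 54, and 567 and 568 of 573 in marrow and ear of animal 108. No member of any animal reached 90% in both tissues, the value set for a near-homozygous site. In animal 136 the 5 members had lower fractions, with medians of 33.3% in marrow and 27.3% in ear, on 6 to 28 reads each.

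No difference between marrow and ear was called at these sites. The rule had already left out sites listed in 1 tissue only, so the comparison covers only alleles found in both. Sites left out in the interval were, for animal 54, 47 of 609 listed in marrow and 283 of 845 listed in ear. For animal 108 they were 188 of 761 and 61 of 634, for animal 136 11 of 16 each. Over the whole genome, 32732 sites of animal 54 were listed in both tissues, out of 43259 in marrow and 67945 in ear. The same numbers were 49978, 79759 and 67274 for animal 108, then 11755, 26602 and 24915 for animal 136. The longer list was that of ear for animal 54 but of marrow for animal 108, both inside the interval and genome-wide. Whether the tissues differ in sites left out was not tested. In animal 54 the mean member fraction was 46.8% in marrow against 47.1% in ear, over 554 members with at least 10 reads in each tissue. In animal 108 it was 47.0% against 47.8% over 566 members. In animal 136 it was 34.1% against 26.5% over 4 members. Marrow was thus lower by less than 1 percentage point in animals 54 and 108 and higher in animal 136, whose value rests on 4 sites. The difference of marrow minus ear was 2.19 ± 4.73 percentage points (SD, n = 3 animals). An exact permutation test that flipped the sign of each animal's difference gave a two-sided p = 1, in a design whose smallest p is 0.25. Without animal 136 the mean difference was -0.54. With single nucleotide alleles only the direction turned, to -1.38 percentage points, and marrow was then lower in all 3 animals (exact sign-flip test, two-sided p = 0.25, the smallest possible).

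Per site, Fisher's exact test on the reads, with Benjamini-Hochberg adjustment over all tested sites of the animal, called 0 of 554 members in animal 54, 0 of 566 in animal 108 and 0 of 4 in animal 136 at an adjusted p under 0.05. The same test called 0.0346% of 31835 sites over the whole genome of animal 54, 0.0327% of 48977 in animal 108 and 0.0181% of 11026 in animal 136. At an unadjusted p under 0.05 it marked 40 members (7.22%) in animal 54 against 8.41% of all its sites, and 36 (6.36%) in animal 108 against 7.43%. In animal 136 it marked 0 of 4 members, against 6.22%. In animal 54 the lowest was an intergenic allele at 35537359, inside the pseudogene Gm7733, with 30 of 76 marrow and 73 of 111 ear reads (Fisher's exact test, adjusted p = 0.163).

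**Figure D4:**
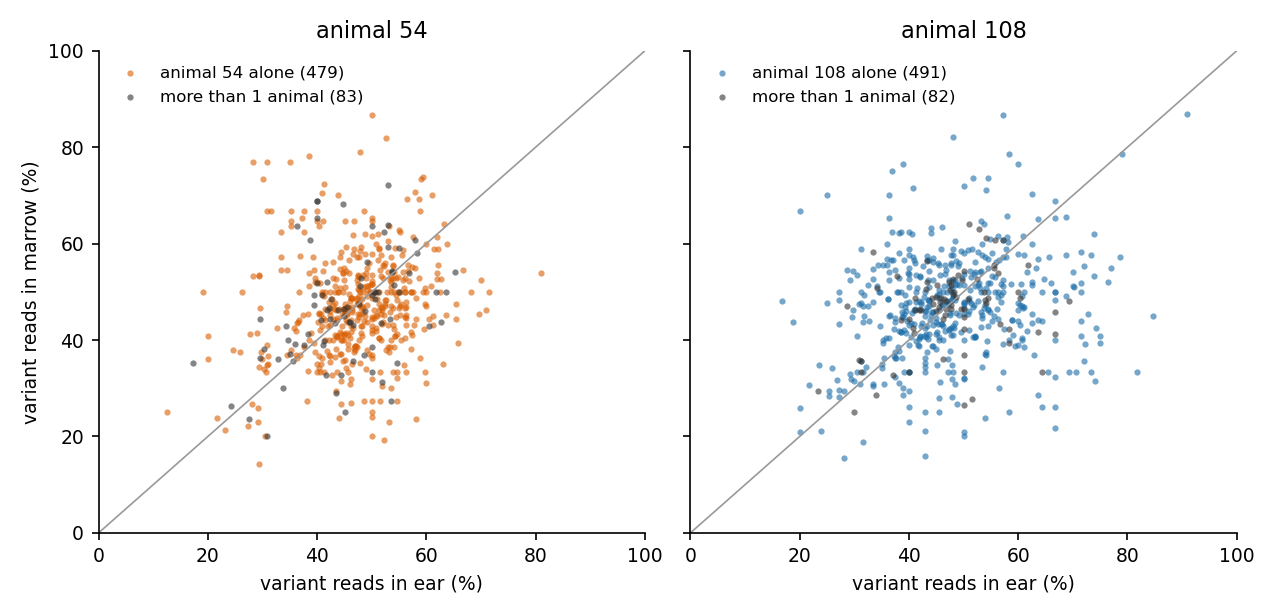
Each point is a member carried by animal 54 (left) or 108 (right), with its percentage of variant reads in ear on the x axis and in marrow on the y axis; the grey line marks equality. In both animals the points gather around the middle of both axes, and alleles of 1 animal alone and alleles in more than 1 animal overlap.

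The authors' deposited somatic calls were compared with the members. The authors' deposited table of VarScan2 lists 7 calls in the interval, 2 marked somatic and 5 marked LOH (loss of heterozygosity), 4 in animal 54 and 3 in animal 108. Of these, 5 lay at a member position. The authors' deposited table gives the call in 1810062G17Rik at 36481695 in animal 54 as LOH, with 18 of 23 variant reads in marrow and 10 of 26 in ear (somatic p = 0.00536). Under the adjustment over all sites, these 5 members had adjusted p values from 0.395 to 0.651 by Fisher's exact test. The authors' deposited table of Strelka has 8 calls in the interval, all marked somatic, and 0 of them lay at a member position. Members had to be listed in ear, and a somatic call is a marrow change against ear, so the rule itself limits this overlap. The share of either caller's calls at carried sites over the whole genome is not given here. Both overlaps are therefore a description and no result about the members.

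Alleles of 1 animal alone and shared alleles were compared within each animal. In animal 54 the mean over both tissues was 47.2% for 473 alleles carried alone and 45.6% for 81 shared ones, in animal 108 it was 47.4% for 484 and 47.1% for 82, and in animal 136 it was 30.9% for 3 and 28.5% for 1. The difference was 1.41 ± 1.02 percentage points (SD, n = 3 animals), higher for alleles carried alone in 3 of 3 animals, and the exact sign-flip test gave a two-sided p = 0.25, the smallest possible. It turned to -1.65 with single nucleotide alleles only, where animal 136 kept 1 site of each kind with enough reads. Transitions, the exchange of A with G or of C with T, made up 71.5% of 883 single nucleotide alleles carried alone (95% Clopper-Pearson interval 68.4 to 74.4%) and 64.2% of 81 shared ones (52.8 to 74.6%), intervals that overlap. The share was 72.2% of 436 alleles of animal 54 alone and 70.9% of 446 of animal 108 alone. Over the whole series, transitions made up 66.4% of single nucleotide alleles.

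Read depth differed between animals and tissues. Members of animal 54 had a median depth of 38.5 reads in marrow against 70.5 in ear. The medians were 46 against 37 in animal 108, and 25 against 22 in animal 136. Other sites of chromosome 3 listed in both tissues had medians of 36 and 66, 44 and 37, and 38 and 31 reads in the same order. The difference, averaged over the tissues, was 3.5 reads in animal 54, 1 in animal 108 and -11 in animal 136, or -2.17 ± 7.75 (SD, n = 3 animals; exact sign-flip permutation over animals, two-sided p = 1). The direction turned when all sites of the lists were used in place of those listed in both tissues, to 5.42 reads (exact sign-flip test, two-sided p = 0.25, the smallest possible). Without animal 136 it was 2.25 reads. Median mapping quality was 41 in all 4 libraries of animals 54 and 108. The 42 members assigned to Gm7741, a pseudogene beside Atp11b, stood apart, and 33 members lay within its RefSeq span. Of the 42, the 38 carried by animal 54 had a median depth of 296 marrow and 444.5 ear reads and a median mapping quality of 34. These alleles are uncertain, and whether reads of a related gene were placed there was not tested.

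By annotation, 712 members lay in introns away from splice sites, 96 were synonymous, 47 missense and 33 in 3′ untranslated regions, while 67 were intergenic. Each was taken at its strongest effect on any transcript. Of the 16 genes on a list of the interval and its edge, 12 had a member within their RefSeq span. Adad1, Il2 and Il21, beyond the right edge, had none by the rule, but animal 108 carried 37, 8 and 26 sites in their spans, and animal 54 carried 0 in each. Tmem155, the remaining gene of the list, had no member listed under this name.

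Gene by gene, the carrier changed from left to right. Counts given here are of members assigned to a gene by annotation. They can differ from those within its RefSeq span, as for Acad9, with 114 against 102. Atp11b encodes a P4-type ATPase that moves phospholipids across membranes, and it held 97 members, 66 of animal 54 alone, 21 of animal 108 alone and 10 shared. Dcun1d1, a factor of cullin neddylation, held 15, of which 6 belonged to animal 54 alone, 5 to animal 108 alone, 3 were shared and 1 belonged to animal 136. Mccc1, a subunit of the leucine-degrading methylcrotonyl-CoA carboxylase, held 113, 79 of animal 54 alone, 16 of animal 108 alone and 18 shared. Ccdc144b stood out for its shared part: 36 of its 108 members were carried by both animals, beside 35 of animal 54 alone and 37 of animal 108 alone. That made 50.7% of the alleles of animal 54 and 49.3% of those of animal 108 in this gene.

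Acad9, needed for the assembly of respiratory complex I, was next and had few shared alleles. It held 114 members, 93 of animal 54 alone, 16 of animal 108 alone and 5 shared. D3Ertd254e (Zfp267) held 15, all of animal 54 alone. Qrfpr held 33, 29 of them of animal 54 alone, and Anxa5, which encodes the phosphatidylserine-binding annexin A5, held 55, of which 41 belonged to animal 54 alone, 8 to animal 108 alone and 6 were shared. In 1810062G17Rik 9 of 11 members belonged to animal 54 alone, and this gene was the last of its run.

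To the right, every member in Exosc9, Ccna2 and Bbs7 was carried by animal 108 alone. Exosc9, a subunit of the RNA exosome, held 48, Ccna2, which encodes cyclin A2, held 33, and Bbs7, a subunit of the BBSome that serves cilia, held 93. The large gene 4932438A13Rik, whose product belongs to a family of bridge-like lipid transfer proteins, held 134 up to the edge of the interval, 129 of them of animal 108 alone. The other 5 in this gene included the 4 late sites of animal 54.

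**Figure D5:**
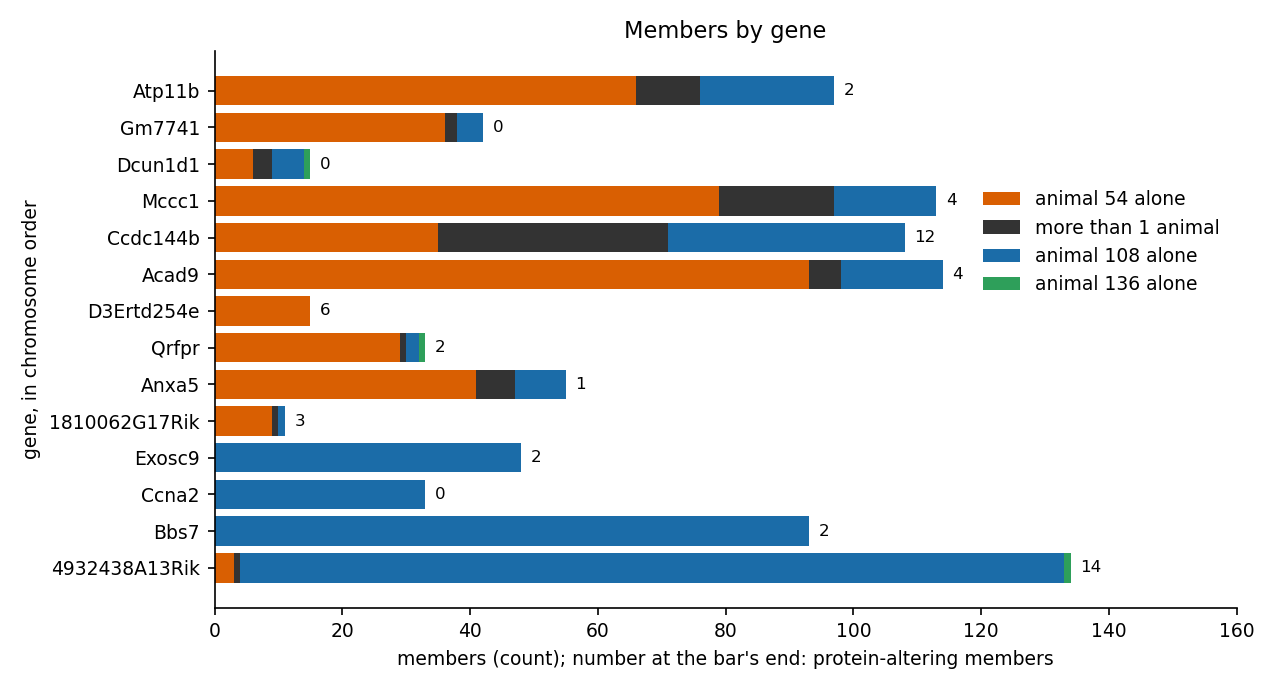
Stacked bars give the number of members assigned to each gene reported here with at least 5 members, in chromosome order from top to bottom and coloured by the animals that carry them; the number at the end of a bar counts protein-altering members. Exosc9, Ccna2 and Bbs7 hold alleles of animal 108 alone, and Ccdc144b has 36 alleles in more than 1 animal.

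Protein-altering effects, those annotated as HIGH or MODERATE, were noted for 52 members in 11 genes: 20 of animal 54 alone, 26 of animal 108 alone and 6 shared. Their variant fractions ran from 27.2 to 71.4% over the samples that carried them, with a median of 46.8%. For 45 of them the effect fell on at least 1 protein-coding transcript, and for 7 it fell only on transcripts of another class. Alleles carried alone had 17 missense against 38 synonymous members in animal 54 and 24 against 54 in animal 108, ratios of 0.447 and 0.444. Among shared alleles there were 6 missense and 4 synonymous members.

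Only animal 54 carried members of HIGH impact, 3 in number. In 1810062G17Rik, the splice donor allele c.189+1G>A at 36479568 had 70 of 154 marrow reads (45.5%, 95% Clopper-Pearson interval 37.4 to 53.7%), and in ear 120 of 232 (51.7%, 45.1 to 58.3%). The same gene had the 1-base insertion c.263_264insC at 36481849, annotated as the frameshift p.Arg89fs in its last exon, with 23 of 40 marrow reads (57.5%, 40.9 to 73.0%), and in ear 25 of 68 (36.8%, 25.4 to 49.3%). It also had the missense allele p.Pro37Leu, with 106 of 235 and 160 of 290 reads. Whether the 3 alleles lie on one chromosome copy cannot be read from the lists, which give no phase. The third HIGH member, the Atp11b splice acceptor allele c.2507-2A>G at 35829415, had 78 of 174 and 104 of 218 reads. It falls on a splice site in 1 of 3 coding transcripts, and in the other 2 it lies inside an intron.

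The missense alleles of Ccdc144b show how the animals differ and agree within one gene. It had 12 protein-altering members, 4 of them shared. Among the 12, p.Thr235Met of animal 108 alone was noted on no protein-coding transcript. Exon 3 held 4 within 73 bases: p.Ala91Glu, carried by both animals, p.Arg92His, 3 bases away and carried by animal 108 alone, and p.Leu70Arg and p.Val68Glu, carried by animal 54 alone. The shared p.Ala91Glu had 54 of 102 marrow reads and 58 of 121 ear reads of animal 54, and 49 of 97 and 37 of 86 of animal 108. Next to it, p.Arg92His had 45 of 92 and 38 of 89 reads in animal 108 and was not listed in animal 54, although that animal's reads covered the base 3 positions away. Exon 6 held the shared p.Thr224Ala and p.Thr221Ala, 10 bases from end to end, and exon 10 held p.Gly485Ser and p.Tyr452Asn of animal 108 alone.

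In the enzymes, Acad9 had p.Glu53Lys and p.Glu163Asp in animal 54 alone, and the second had 161 of 346 and 212 of 471 reads. Its p.Ser11Leu (animal 108 alone) and p.Pro23Ser (both animals) were noted on a 6-exon transcript, which was 1 of 2 coding transcripts. Mccc1 had p.Arg324Lys in animal 54 alone, with 15 of 32 and 18 of 32 reads. Its p.Pro32Leu, p.His30Arg and p.Thr28Met, in animal 108 alone, lay within 13 bases and were noted on no protein-coding transcript. They had 15 of 29, 14 of 29 and 11 of 25 reads in marrow, and 10 of 14, 10 of 15 and 10 of 14 in ear.

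The last exon of D3Ertd254e (Zfp267) held 6 missense members of animal 54 alone within 319 bases. The same codon differed at both c.280T>C and c.282C>G, and each was annotated on its own as p.Phe94Leu. They had 75 of 154 and 76 of 150 reads in marrow, and 90 of 194 and 93 of 196 in ear, counts that are nearly the same for both. The others were p.Cys118Arg, p.Gly131Arg, p.Ser172Leu and p.Asn200His. Anxa5 had p.Ala157Gly at the edge of its exon 8, with 17 of 40 and 32 of 63 reads in animal 54. Qrfpr had p.Ala384Glu in animal 54 alone and p.Arg353Lys in both animals, with 53 of 102 and 81 of 194 reads in animal 54 and 83 of 179 and 77 of 154 in animal 108.

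Animal 108 alone carried the protein-altering members from Exosc9 onward. Bbs7 had p.Val161Met and p.Val49Met. The second had the lowest fractions of the protein-altering members, 87 of 309 marrow reads (28.2%, 95% Clopper-Pearson interval 23.2 to 33.5%), and in ear 85 of 312 (27.2%, 22.4 to 32.5%), intervals that exclude an even split in both tissues. Intervals below an even split in both tissues were also found in animal 108 for p.Gly485Ser and p.Tyr452Asn of Ccdc144b and p.Lys434del of Exosc9. For the shared p.Pro23Ser of Acad9 this held in both tissues of animals 54 and 108. Exosc9 had p.Ile369Val beside the loss p.Lys434del shown above, which fell on 1 of 2 coding transcripts. In 4932438A13Rik there were 14, among them p.Val1479Leu, p.Arg1487Thr, p.Val1493Ile and p.His1504Gln within 78 bases of exon 29, with 48 of 109, 58 of 121, 64 of 131 and 79 of 147 reads in marrow. The neighbouring codons of p.Ser706Cys and p.Met707Thr had 40 of 78 and 38 of 76 reads. Of the 14 in 4932438A13Rik, p.Val308del, p.Gly318Val and p.His323Tyr were noted on no protein-coding transcript. Ccna2 had no protein-altering member.

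Of the 5 members of animal 136, 1 was carried by all 3 animals and 1 by animals 54 and 136. The first, c.2506+532G>C in an intron of Atp11b at 35829235, had 8 of 25 marrow reads and 5 of 20 ear reads of animal 136. It had 4 of 11 and 13 of 44 of animal 54, and 6 of 24 and 6 of 20 of animal 108. These fractions lay below the medians of the members in every one of the 6 samples. The second, c.7142-141G>T in 4932438A13Rik at 36975446, lay next to a run of T and had 2 of 6 and 4 of 10 reads in animal 136. The remaining single nucleotide allele, c.6075-35C>G in the same gene, had 2 of 13 and 4 of 14 reads. With the 2 repeat losses shown above, these 5 sites make up all that animal 136 carried in the interval.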

How the data were processed

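Per the file headers, the authors' list for each sample holds SAMtools calls with SnpEff notes, with read counts per allele, depth and mapping quality. Tools named in the submitters' processing notes are Bowtie2, FastQC and SAMtools, and builds mm9 and GRCm38. The reference bases of all 1181 single nucleotide sites that fall in RefSeq promoter windows (GRCm38.p6) equalled the RefSeq base. The authors' deposited VarScan2 tables give read counts per tissue and a somatic p-value, and Strelka lists a quality. Depth in the lists was at least 11 reads.

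An allele was carried when listed in marrow and ear with the same position and bases. A variant fraction is variant reads over reads of both alleles (DP4). Each member took its annotation of highest impact, inside a gene before outside, and protein-coding transcripts before others. Fisher's exact test used sites with at least 10 reads in each tissue, adjusted over the animal's whole list, and was tested on simulated data. Marrow and ear were paired by animal, as the labels state. Over 4679 sites carried by all 3 animals, deviations of marrow and ear fractions from the mean of the animals correlated at 0.124 (animal 54), 0.155 (animal 108) and 0.095 (animal 136). Named genes were all those with a protein-altering member, with at least 5 members or on the list of the interval, plus the ends of runs. Some results within the interval are not reported here. Intervals cover counting error only, since reads are not independent molecules. Software was Python 3.11.15, with NumPy, pandas, SciPy and Matplotlib. The members, lists and stretches were chosen with earlier results of these data known.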

Additional observations from a re-analysis of the deposited data

How the results depend on the processing

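The interval held 1609 members when a call in either tissue was enough, of which 1483 were in 1 animal alone and 126 in more than 1, with 892 carried by animal 54 and 27 by animal 136. Animal 136's 5 members fell to 2 with at least 20 reads in both tissues, 3 with single nucleotide alleles only and 1 with a consensus quality (FQ, absolute value) of at least 30. The lists have no variant quality column, so FQ took its place. At a fraction of 0.8, 1 member of animal 108 counted as near-homozygous, a loss of T bases in a run of T in 4932438A13Rik. Leaving out 1 animal at a time gave 563 to 971 alleles in 1 animal alone and 1 to 82 in more than 1: without animal 54 or animal 108 almost no shared allele is left (1 and 2).

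The difference of marrow minus ear was -1.38 percentage points with single nucleotide alleles only, and -0.54 to 3.68 leaving out 1 animal at a time. Without the block by animal, that is without pairing, it was 2.19 (exact permutation test, two-sided p = 1). The fraction of alleles carried alone minus shared was -1.65 with single nucleotide alleles only and 0.936 to 1.95 leaving out 1 animal. Depth of members minus the rest of chromosome 3 was 5.42 reads over all sites of the lists and -5 to 2.25 leaving out 1 animal. The other counts, the transition shares and the 0 members passing the marrow-ear read test kept their side under the alternatives run. With 3 animals the paired sign-flip test cannot go below 0.25, and depth at uncalled sites is unknown.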
